A study of Mus musculus with 3 samples.

Results

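The comparison described here sets the sinonasal mucosa of wild-type mice with induced allergic eosinophilic chronic rhinosinusitis (array labelled ECRS_WT) against the same tissue of wild-type mice without disease (array labelled Control_WT), gene by gene. Its members were all genes with a detection p-value under 0.01 on either array. There were 8771 such genes of 17349 with a named probe, 7337 of them detected on both arrays, 885 on ECRS_WT alone and 549 on Control_WT alone. All mice were C57BL/6 of 6 to 8 weeks of age, and each array was hybridised with RNA of 5 mice mixed in equal amounts, so that the comparison rests on 10 mice and 1 array a side. The remaining pool, ECRS_KO, came from mice that lack CC10 and carry the same disease, and its values are given beside the others. With 1 array a side there is no replicate, no error between mice and no test: every difference is a difference between 2 pools. The labels do not say how the disease was induced or what the mice without disease received.

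The sinonasal mucosa joins 2 linings. The respiratory part is made of ciliated, secretory and basal cells, and the olfactory part holds sensory neurons, sustentacular cells and Bowman's glands, whose enzymes clear odorants and inhaled chemicals. In eosinophilic chronic rhinosinusitis, type 2 cytokines recruit eosinophils to this lining, and mucus, oedema and tissue remodelling follow. Matrix proteases, antigen-presenting macrophages, secretory proteins and cell stress genes are therefore gene groups often examined in this disease.

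The arrays differed in brightness, with a mean signal of 373 on ECRS_WT and 465 on ECRS_KO, against 295 on Control_WT. Of 35226 probes, 11992 were detected on ECRS_WT and 12508 on ECRS_KO, against 11428 on Control_WT. Signals were therefore corrected for background and brought to a common distribution, and the value given for a gene is its normalised signal. A gene counts as higher or lower if the arrays differ by 2-fold or more and the brighter of them detected it. Folds against an array that did not detect the gene are written "at least". The level there is the gene's own or the lowest detected one, whichever is higher. Where its own level is the higher, as for Gpnmb, Rbbp7, Tsc22d1 and Acvr1b, the fold is the plain ratio and not a bound. All such folds hold only under the processing used here. With the authors' normalised values the log2 difference of Rbbp7 was 3.08, against 3.85 as reported. In bulk tissue, fewer cells of a type and less RNA per cell cannot be told apart. The tissue label was borne out by its products: the odorant-binding protein gene Obp2a had 34782 on ECRS_WT and 33968 on ECRS_KO, against 31801 on Control_WT, and Omp, the olfactory marker protein of mature sensory neurons, had 12218 and 13535, against 11876.

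One gene goes against the genotype labels. Scgb1a1 encodes CC10, the club cell secretory protein that ECRS_KO mice are labelled as lacking, and its normalised signal was 522 on ECRS_WT and 459 on ECRS_KO, against 30.4 on Control_WT, where it was not detected. Its difference came to at least 14.3-fold, and it was called in 8 of 10 other settings; limma's own background estimate gave a log2 difference of 0.86, against 3.84 as reported. Its signal was thus high on both arrays labelled as diseased, the knockout included, and low on the array labelled as wild type without disease. Group names are used below as labels, and whether they belong to these arrays was not tested.

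Sequence is shown for a pair of promoters, those of Mmp3 and Herpud1, each taken from RefSeq (GRCm38.p6, plus strand) from 250 bases before to 50 bases after the gene's start, because both genes were among those higher in ECRS_WT and each belongs to a pathway with a known promoter element. Mmp3 encodes stromelysin-1, a protease of matrix proteins, and its window is chr9:7445572-7445871; the capitals mark the only match to TGANTCA, the AP-1 site bound by Fos and Jun proteins, 46 bases before the start.
Mmp3: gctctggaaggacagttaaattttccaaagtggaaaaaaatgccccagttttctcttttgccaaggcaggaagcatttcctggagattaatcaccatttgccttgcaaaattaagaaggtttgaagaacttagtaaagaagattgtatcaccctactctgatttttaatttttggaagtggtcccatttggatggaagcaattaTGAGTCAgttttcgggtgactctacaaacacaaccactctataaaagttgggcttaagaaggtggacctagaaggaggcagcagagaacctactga
Herpud1 encodes a membrane protein of the endoplasmic reticulum that takes part in the degradation of misfolded proteins, and its window is chr8:94386179-94386478; the capitals mark the only match to the ER stress response element of the second type (ATTGG, any base, CCACG), 52 bases before the start.
Herpud1: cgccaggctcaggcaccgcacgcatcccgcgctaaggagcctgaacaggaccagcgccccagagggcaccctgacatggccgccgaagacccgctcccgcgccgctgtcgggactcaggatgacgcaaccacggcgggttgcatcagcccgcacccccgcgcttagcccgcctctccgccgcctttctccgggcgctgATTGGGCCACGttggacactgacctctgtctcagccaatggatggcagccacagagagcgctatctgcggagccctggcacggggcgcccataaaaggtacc
Both strands were searched in 32851 promoter windows of the same length. TGANTCA was found in 7.81% of them and the element of the second type in 0.0365%, that is in 12 windows. The ER stress response element of the first type (CCAAT and CCACG with 9 bases between) was found in 0.119% of windows and had no match in that of Herpud1; its letters overlap those of the second type in part. A match describes letters in a window and says nothing of binding in this tissue.

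Across all genes the pools were close. Of the 8771 genes, 94.8% lay within 2-fold and 79.1% within 1.5-fold, and the middle 95% of log2 differences ran between -0.89 and 1.20. In all, 328 genes (3.74%) were higher in ECRS_WT and 125 (1.43%) were lower, together 5.16%. Of the higher genes 215 were detected on both arrays and 113 on ECRS_WT alone. Of the lower genes 84 were detected on both and 41 on Control_WT alone. The excess of higher over lower calls was in the large differences: at 1.5-fold the counts were 857 higher and 952 lower, at 3-fold 99 and 13, at 4-fold 49 and 7, and at 8-fold 9 and 2. The median log2 difference of all genes was -0.09, and a scaling on the array medians alone moved it to 0.10, so list medians below are given relative to the median of all genes. Dim genes passed 2-fold more often than bright ones: with the genes cut by level into 4 classes of equal size, lowest first, 5.38%, 5.20%, 2.78% and 1.60% were higher, and 2.83%, 1.64%, 0.73% and 0.50% were lower.

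**Figure D1:**
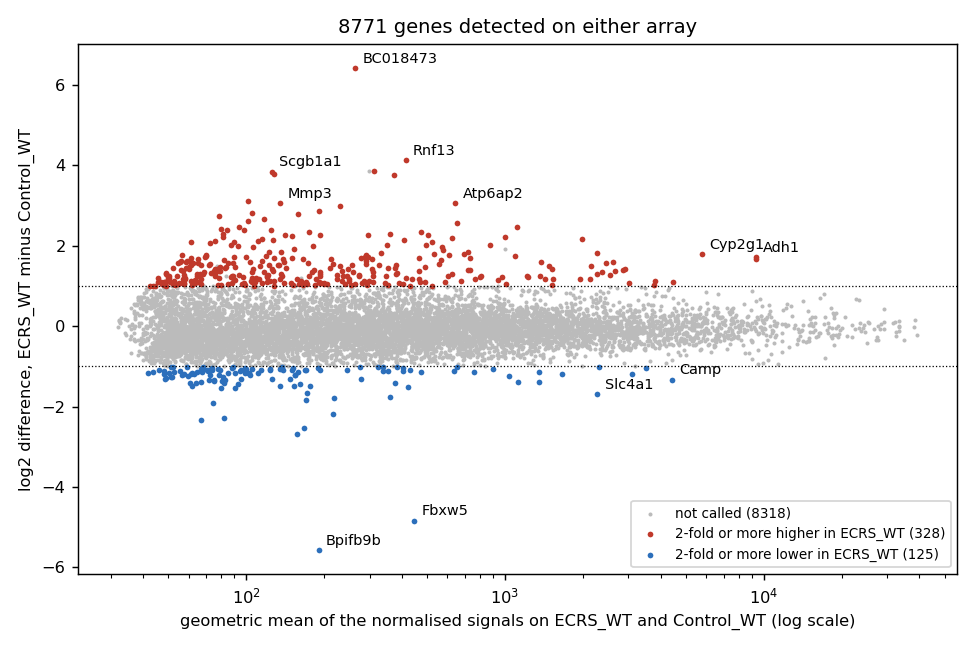
Log2 difference, ECRS_WT minus Control_WT, against the geometric mean of the normalised signals on both arrays (log axis), 1 point a gene. Of 8771 genes, 328 were called higher (red) and 125 lower (blue), most of them at low signal. Genes not detected on the dimmer array stand at the fold written "at least" in the text, and dotted lines mark 2-fold.

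How far the called genes hold under other processing was looked at next, with the rule for this group chosen after the values had been seen. The call of 56 higher and 10 lower genes was the same under all 10 other settings tried. Among these were other background estimates, scalings and the values normalised by the authors. Not every setting could overturn a call. A detection p under 0.05 or no detection filter keeps all calls by construction, and the filter on all 3 arrays only drops genes. For a gene with a single probe, the mean of its probes is the same value. Counts of settings given for single genes include these. The differences of Rnf13, Atp6ap2, Gsn and Igfbp2 led the higher ones, and that of Fbxw5 the lower ones. Several of the 56 are genes of membrane traffic. Rab1b, Arf5 and Ykt6 act in transport between the endoplasmic reticulum and the Golgi, Tmed2 and Tmed4 are cargo receptors of that step, Rab7 acts at late endosomes, and Tgoln1 is a protein of the trans-Golgi network. They were picked after the values were seen, and whether the class is over-represented was not tested. Tmed2 had a normalised signal of 4219 on ECRS_WT and 4523 on ECRS_KO, against 932 on Control_WT, a 4.53-fold difference. Rab1b had 1100.3 and 980.4, against 229.8, and was 4.79-fold higher. Arf5 had 708 and 728, against 175, a 4.05-fold difference. Each of these 3 genes stood close to its ECRS_WT value on ECRS_KO, with Control_WT the low array.

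**Figure D2:**
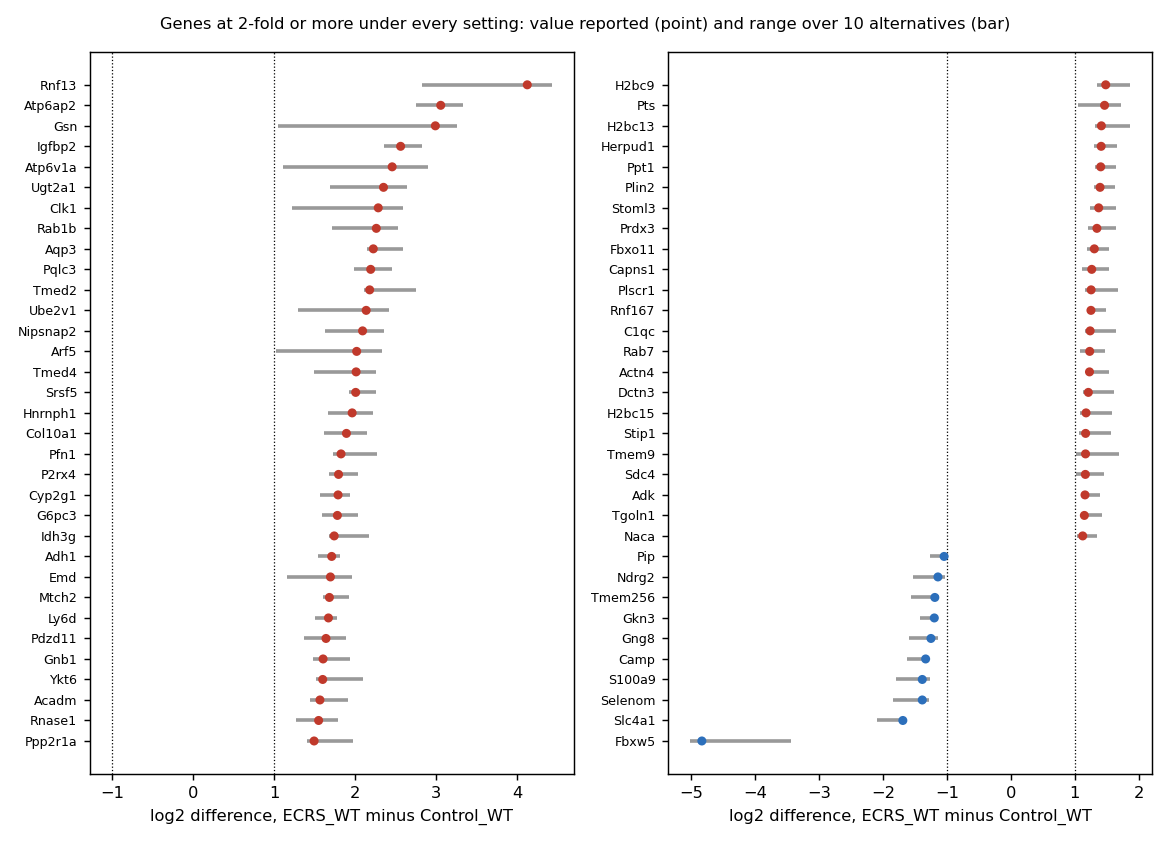
Log2 difference, ECRS_WT minus Control_WT, of the 66 genes whose call was the same under all 10 other settings, with the value reported (point, red higher and blue lower) and the range over the other settings (bar); dotted lines mark 2-fold. The 56 higher genes begin with Rnf13 at 4.12 and the 10 lower genes end with Fbxw5 at -4.83.

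Further genes of this group have other roles. Splicing factors and their regulator were among them: the splicing-factor kinase Clk1 had 793 on ECRS_WT and 985 on ECRS_KO, against 163 on Control_WT, and was 4.87-fold higher. Srsf5 and Hnrnph1, RNA-binding proteins of splicing, were 4.02-fold and 3.90-fold higher. Mitochondrial genes included Acadm, a dehydrogenase of fatty acid oxidation, at 4243 and 4304, against 1434 (2.96-fold), with Idh3g of the citric acid cycle at 3.34-fold and the peroxidase Prdx3 at 2.54-fold. The core histone genes H2bc9, H2bc13 and H2bc15 were 2.80-fold, 2.67-fold and 2.26-fold higher; their transcripts are near-identical, so their probes may share signal. Ly6d, a surface protein of epithelial and lymphoid cells, differed from these in its pattern: 16678 on ECRS_WT and 5455 on ECRS_KO, against 5242 on Control_WT, with ECRS_WT the only high array.

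Agreement between probes of the same gene was limited. Of 597 genes with 2 or more measured probes, 100 had a probe at 2-fold or more, none had probes called in opposite directions, and in 12 all probes were higher; none had all probes lower. Of 39 such genes whose reported probe was called, all probes agreed for the same 12, and in 14 another probe had the opposite sign without being called. Atp6v1a is one with a second probe apart: the reported probe was 5.48-fold higher and the other had 231 on ECRS_WT and 292 on ECRS_KO, against 270.4 on Control_WT. The 12 genes with agreement were BC018473, Dcpp1, H2-Q6, H2bc7, Ift74, Lhpp, Nipa2, Srek1, Tmem116, Tmem9, Tmpo and Ywhaq. Nipa2, a magnesium transporter, was higher with 3 probes, by 3.15-fold and by at least 3.54-fold and 4.09-fold. Ywhaq, a 14-3-3 adaptor protein, had 647 on ECRS_WT and 648 on ECRS_KO, against 135 on Control_WT, and was 4.80-fold higher, with 3.36-fold by its second probe. Between probes of 1 gene the log2 differences had a pooled SD of 0.50 (370 genes), against an SD of 0.49 among all genes detected on both arrays.

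Among the 25 largest upward differences detected on both arrays, Rnf13, a ubiquitin ligase of endosomal membranes, had 1726 on ECRS_WT and 1363 on ECRS_KO, against 99.2 on Control_WT (17.4-fold). Atp6ap2, an accessory subunit of the vacuolar proton pump, had 1855 and 1491, against 223 (8.30-fold). Both were high on the arrays labelled as diseased and low on Control_WT. Mmp3 had 389 on ECRS_WT and 33.1 on ECRS_KO, where it was not detected, against 47.0 on Control_WT. It was 8.28-fold higher in ECRS_WT, the only array on which it was high, and its call was the same in 8 of 10 other settings; with limma's own background estimate its log2 difference was 0.58, against 3.05 as reported. Gsn (gelsolin, which severs actin filaments) was 7.93-fold higher, Snurf of the imprinted Snrpn locus 7.30-fold, and Serinc2 6.91-fold. With limma's own background estimate neither Snurf nor Serinc2 was called (log2 differences of 0.80 and 0.61), and the second probe of Snurf lay on the other side, at -0.41. Igfbp2, which binds insulin-like growth factors, had 1580.0 and 876, against 268 (5.89-fold). Lower down this rank stood Fgfr3, a receptor of fibroblast growth factors, at 5.24-fold, the mitochondrial ubiquitin ligase Marchf5 at 5.06-fold, Akap2, which anchors protein kinase A, at 4.84-fold, and the retinoic acid receptor Rarg at 4.79-fold. Gatc, Pqlc3, Slc25a36, Ube2v1, Srek1, A730008H23Rik and Nipsnap2 completed it, at 4.26-fold to 4.74-fold. Under limma's own background estimate Fgfr3, Marchf5, Akap2, Gatc and A730008H23Rik were not called, at log2 differences between 0.29 and 0.58. Pqlc3, Ube2v1 and Nipsnap2 kept their call there. Second probes of Marchf5 and Akap2 showed log2 differences of 0.09 and -0.055, so that only 1 probe of each was called.

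Of the genes detected on ECRS_WT alone, the 10 highest were BC018473, Rbbp7, Scgb1a1, Mat2b, Tsc22d1, Met, Acvr1b, Rtp2, Plpbp and Cdkl4. BC018473 had 3121 on ECRS_WT and 3228 on ECRS_KO, against 22.3 on Control_WT, and was at least 85.4-fold higher; its second probe was at least 7.79-fold higher. Met, the receptor of hepatocyte growth factor, had 314 and 294, against 33.0 (at least 8.60-fold), and Acvr1b, an activin receptor, 279 and 369, against 39.8 (at least 7.0-fold, with a log2 difference of 0.36 by its second probe). Rbbp7, a histone-binding subunit of chromatin complexes, was at least 14.4-fold higher, Mat2b, the regulatory subunit of methionine adenosyltransferase, at least 13.7-fold, and Tsc22d1, a leucine-zipper transcription factor, at least 13.5-fold. All of these were also high on ECRS_KO. With limma's own background estimate Met, Acvr1b, Mat2b, Plpbp and Cdkl4 were not called, at log2 differences between 0.34 and 0.82. Scgb1a1 and Rtp2 were also not called there, while BC018473, Rbbp7 and Tsc22d1 kept their call.

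The 25 largest downward differences detected on both arrays began with Fbxw5, a substrate receptor of ubiquitin ligases. Fbxw5 had 83.5 on ECRS_WT and 63.3 on ECRS_KO, against 2383 on Control_WT, and was 28.5-fold lower. It is the mirror image of Rnf13 over the arrays, with Control_WT apart from the other two. Serpina1e, a plasma protease inhibitor, had 62.0 and 28.1, against 399.7 (6.44-fold lower), Scgb2b24, a secretoglobin, 70.1 and 97.4, against 403 (5.74-fold), and Rec8, a cohesin subunit of meiosis, 102 and 166, against 462 (4.54-fold). Slc4a1, which exchanges anions in erythrocytes, had 1269 and 2044, against 4095 (3.23-fold lower), with the call the same in all settings. Fkbp5, a chaperone of steroid receptors, had 248 and 239.7, against 714 (2.88-fold). Further calls were the lipase-like Pnliprp1 at 3.48-fold, the Golgi exchange factor Gbf1 at 3.14-fold (at least 1.52-fold by its second probe), Ifitm6 at 2.92-fold, the potassium channel subunit Kcnk12 at 2.80-fold, the inositol transporter Slc5a3 at 2.69-fold, Sval2 at 2.69-fold, the kinetochore gene Kntc1 at 2.67-fold, Dpysl5 at 2.65-fold, Selenom at 2.61-fold, Icam4 at 2.59-fold, Drp2 at 2.54-fold and 6330403K07Rik at 2.48-fold. Under limma's own background estimate Fkbp5, Pnliprp1, Gbf1, Ifitm6, Kcnk12, Kntc1, Dpysl5, Icam4, Drp2 and 6330403K07Rik fell short of 2-fold. The log2 differences of these genes there ran from -0.92 to -0.12, while Selenom kept its call. Scgb2b24 also lost its call there. Serpina1e and Rec8 are not among the 10 lower genes called in all settings. Gkn3, a gastrokine, had 2053 on ECRS_WT and 2399.9 on ECRS_KO, against 4709 on Control_WT (2.29-fold lower). It stood with Ndrg2, Tmem256 and Gng8 among the 10 lower genes called in all settings.

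Of the genes detected on Control_WT alone, the 10 lowest in ECRS_WT were Bpifb9b, Aldh1a7, Pvalb, Xntrpc, Spns3, Ehhadh, Xpo7, Prss35, Nmur2 and Cbln1. Bpifb9b, of a family of lipid-binding proteins secreted by nasal glands, had 23.1 on ECRS_WT and 684 on ECRS_KO, against 1577 on Control_WT, and was at least 47.4-fold lower. ECRS_WT was the only array on which it was not detected. The retinal dehydrogenase Aldh1a7 was at least 5.05-fold lower and Pvalb, the calcium-binding parvalbumin, at least 4.84-fold lower. The other 7 were at least 2.58-fold to 3.77-fold lower. With limma's own background estimate Bpifb9b kept its call, at a log2 difference of -2.75. Aldh1a7 and Pvalb did not, and Aldh1a7 was at -0.21 there, against -2.34 as reported. Ehhadh, Prss35, Nmur2 and Cbln1 lay between -0.11 and -0.10 there, and each kept its call in 6 of 10 other settings.

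**Figure D3:**
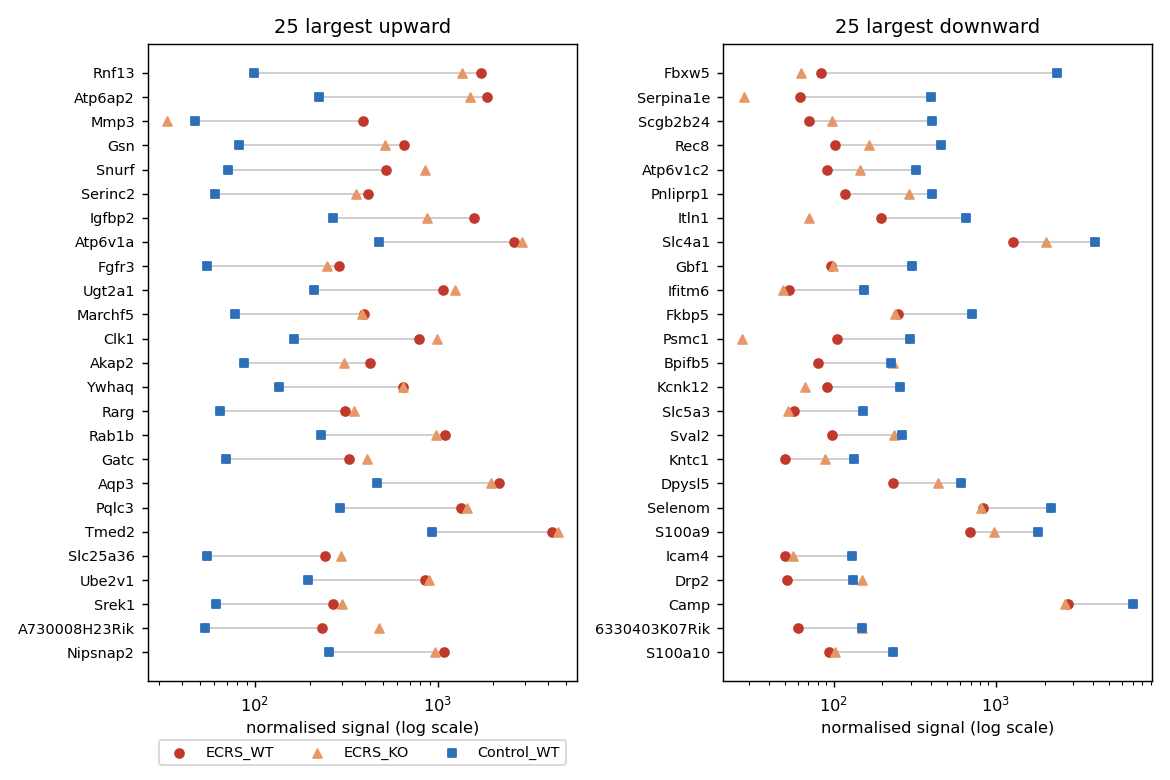
Normalised signal (log axis) of the 25 genes with the largest upward (left) and downward (right) differences among those detected on both arrays, with ECRS_WT as circles, ECRS_KO as triangles and Control_WT as squares. For most genes of either side ECRS_KO lies nearer to ECRS_WT; Mmp3, Bpifb5 and Sval2 are among those where it lies nearer to Control_WT.

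Gene lists for the cell types and pathways of this tissue were then counted, 60 lists with 814 distinct genes measured. A list count is to be read against 3.74% higher and 1.43% lower over all genes, and in 17 lists no member was called. Obp1a, Zbtb16, Stat6, Sp7, Rnf20 and Coro1b are the called list members that kept their call in exactly 5 of 10 other settings.

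Macrophage markers stood above the median of all genes, by 0.52 for the median of 15 genes, with 3 higher and none lower, and the sign was the same under all other settings. Ms4a7, a tetraspan of macrophages, had 643 on ECRS_WT and 225 on ECRS_KO, against 225.5 on Control_WT (2.85-fold). C1qc, a chain of complement C1q made by macrophages, had 1867 and 645, against 790.2 (2.36-fold), with the call the same in all settings. Gpnmb, a glycoprotein of lipid-laden macrophages, had 4623 and 228, against 1772 (at least 2.61-fold; not detected on Control_WT at that signal). Ms4a7 and C1qc were high on ECRS_WT alone, while Gpnmb was highest on ECRS_WT and lowest on ECRS_KO, with Control_WT between. C1qb had 2556 and 749.7, against 1319.5, short of 2-fold. Trem2 had 322 and 90.9, against 339, and Cd14 had 1689 and 711, against 1663, so not all markers of the list differed. Summed over the 20 members with a probe, detected or not, the normalised signal was 28201 on ECRS_WT and 11614 on ECRS_KO, against 16718 on Control_WT. These sums include Lyz2, which was detected on neither ECRS_WT nor Control_WT. Lyz2 had 4935 on ECRS_WT and 1952 on ECRS_KO, against 1442 on Control_WT. Genes of MHC class II presentation had a median 0.62 above that of all genes, with none of 11 past 2-fold here and 3 with limma's own background estimate, under which 1.23% of all genes were higher. Cd74, the invariant chain, had 6024 on ECRS_WT and 2279 on ECRS_KO, against 3098 on Control_WT (log2 difference 0.96), H2-Ab1 had 8002 and 3708, against 4448 (0.85), and H2-Eb1 had 5667 and 2027, against 4935 (0.20). The list's genes lay above 0 in 10 of 11 cases.

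Neutrophil markers stood below the median of all genes, by 0.69 over 12 genes, with 4 lower and none higher, and with the sign the same under all other settings. Camp, the cathelicidin antimicrobial peptide, had 2779 on ECRS_WT and 2667 on ECRS_KO, against 7004 on Control_WT (2.52-fold lower). S100a9, a subunit of calprotectin, had 695 and 972, against 1816 (2.61-fold lower), while its partner S100a8 had 8664 and 8474, against 12056, short of 2-fold. Ctsg and Mpo, proteins of the azurophil granule, were 2.48-fold and 2.20-fold lower. Camp and S100a9 kept their call in all settings, and Control_WT was the high array for all 4. Ngp, Lcn2 and Ltf, which also encode neutrophil granule proteins, were not called. Ngp had 1147 and 1149, against 750.2, Lcn2 had 11701 and 3398, against 9418, and Ltf had 37787 and 42283, against 38378. The red-cell list stood 0.32 below the median of all genes, with Slc4a1 lower and 8 others short of 2-fold; Alas2 had 737 and 744, against 1229, and the globin genes Hba-a1 and Hbb-bs differed by -0.21 and -0.16. The part of blood or marrow cells in these differences was not tested.

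Eosinophil markers were few and dim. Of 9 genes with a probe 4 were detected on either array, and Epx, Siglecf, Ccr3, Alox15 and Rnase2a were detected on neither. Prg2, the major basic protein of eosinophil granules, had 932 on ECRS_WT and 846 on ECRS_KO, against 1816 on Control_WT, a log2 difference of -0.96 that is short of 2-fold. Cebpe, a transcription factor of granulocytes, had 68.1 and 53.3, against 157 (2.30-fold lower, in 6 of 10 other settings). All 4 values lay below 0, so that the eosinophil genes detected here were not higher on the array labelled with the eosinophilic disease. Among mast cell markers Mcpt4, a protease of connective tissue mast cells, had 214 and 91.3, against 87.5 (2.45-fold higher). The other 3 of 4 were short of 2-fold. Mcpt4 was not called with limma's own background estimate (log2 difference 0.20) or with the authors' values (0.72). None of 9 T cell and NK cell markers and none of 7 dendritic cell markers was called; Cd3g had 562 and 148, against 352, while Cd3d had 554 and 126, against 649.8. Of 9 B cell and plasma cell markers Cd79b, a chain of the B cell receptor, was 2.01-fold lower, in 6 of 10 other settings.

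**Figure D4:**
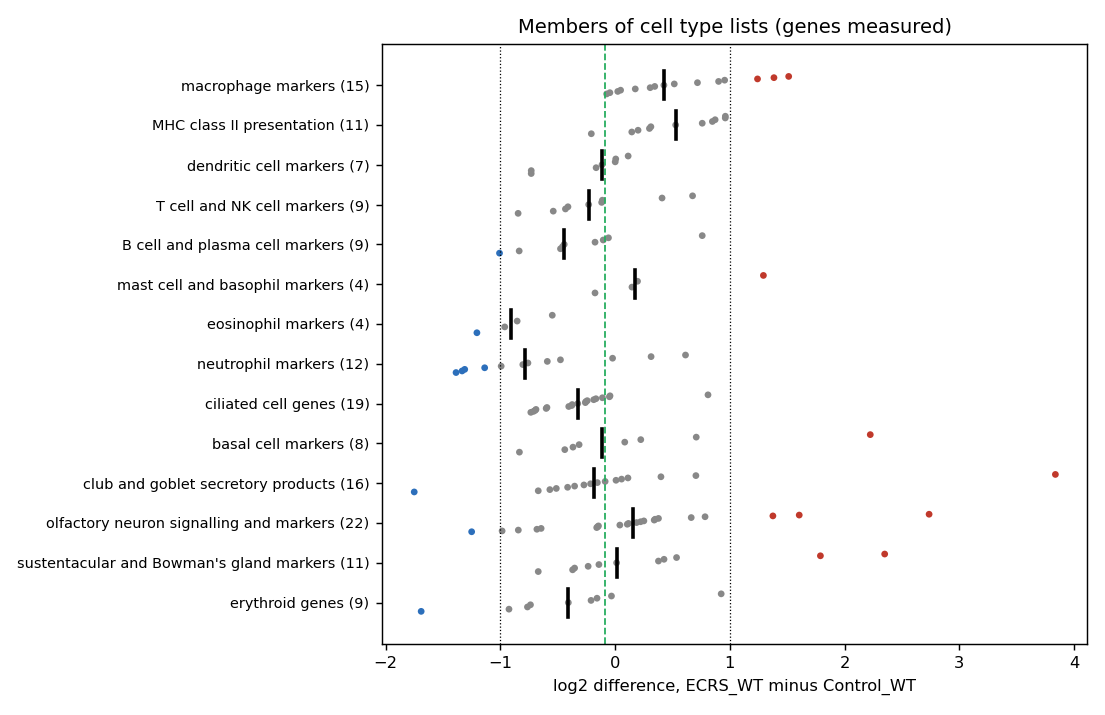
Log2 difference, ECRS_WT minus Control_WT, of each measured member of 14 cell type lists, with the number measured in brackets; red points were called higher, blue points lower, black bars are list medians and the dashed line is the median of all genes (-0.09). Macrophage and MHC class II members lie mostly to the right of it, and neutrophil and eosinophil members mostly to the left.

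Few mediators of inflammation were called. Of 7 type 2 cytokine, receptor and factor genes only Stat6, the transcription factor downstream of the interleukin-4 receptor, was called, at least 2.24-fold higher (99.9 on ECRS_WT and 72.9 on ECRS_KO, against 44.5 on Control_WT) and in 5 of 10 other settings. Il13 had 101 and 99.6, against 106, and Il33, an epithelial alarmin, 2513 and 3369.9, against 2514. Il4 and Il5 were not detected on either array. None of 7 chemokines that attract eosinophils and Th2 cells was called: Ccl11 (eotaxin-1) had 78.0 and 50.1, against 45.8, and Ccl17 85.9 and 38.8, against 160.4. Cxcl1, a neutrophil-attracting chemokine, had 752 and 197, against 291, and was 2.59-fold higher, the only one called of 7 CXC genes. None of 13 interferon-induced genes, 10 genes of toll-like receptor signalling or 9 NF-kB genes was called. Complement had C1qc alone called of 12. Eicosanoid synthesis had Hpgds, the haematopoietic prostaglandin D synthase, alone of 11, at least 2.0-fold higher and in 3 of 10 other settings. The log2 difference of Hpgds was 0.06 with limma's own background estimate, 0.34 with the authors' values and 0.993 with median scaling, each short of 2-fold.

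Immediate early genes had a median 0.45 above that of all genes, with 2 of 13 higher and none lower. With limma's own background estimate the median lay 0.13 above, with 1 gene higher. Fos, a subunit of AP-1, had 378.5 on ECRS_WT and 192 on ECRS_KO, against 159 on Control_WT (2.39-fold), and Klf4 had 114 and 53.2, against 39.4 (2.88-fold). Neither was called with limma's own background estimate (log2 differences of 0.39 and 0.12) or with the authors' values (0.93 and 0.56). Egr1 had 1271 and 736, against 675, a log2 difference of 0.91. All 3 were brightest on ECRS_WT, while Jun differed by 0.07 and Jund by 0.10. Of 16 genes induced by glucocorticoids, Fkbp5 and Zbtb16 were lower and none higher, and the median lay 0.16 above that of all genes. Npas2 alone was called of 10 clock genes, at least 2.14-fold higher and in 4 of 10 other settings. The times of day and of handling at which tissue was taken are not given in the labels.

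Secretory proteins of the airway lining went both ways. Of 16 club and goblet cell products, Scgb1a1 was higher and Itln1 was lower. Itln1, a lectin of goblet cells, had 196 on ECRS_WT and 70.1 on ECRS_KO, against 658 on Control_WT (3.37-fold lower). The gel-forming mucin Muc5b had 6723 and 5869, against 10697, and Muc5ac had 1490.3 and 1569, against 2126, both short of 2-fold and on the low side. Muc1, a membrane mucin, had 2178 and 928, against 1068 (2.04-fold higher), the only one of 7 mucins called. Of 5 secretoglobins Scgb1a1 was higher and Scgb2b2 and Scgb2b24 lower, and none was called with limma's own background estimate. Among 16 proteins of the nasal glands, 2 were higher and 4 lower. Dcpp1 and Dcpp2, near-identical genes of the demilune cell protein family, were higher, by at least 2.37-fold and by 2.21-fold, and signal from one may be counted for the other. Bpifb9b, Bpifb5, Obp1a and Pip were lower; Pip had 2437 and 7889, against 5026 (2.06-fold lower). ECRS_WT was the lowest array for all 4, while Bpifa1 (16712 and 15896, against 18722) and Bpifb1 (4835 and 2237, against 4879) were within 2-fold.

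Among structural genes of the epithelium, none of 19 genes of ciliated cells was called, and their median lay 0.23 below that of all genes in the values reported and below it in all other settings. Rsph1, a radial spoke protein of motile cilia, had 6453 on ECRS_WT and 5731 on ECRS_KO, against 7724 on Control_WT. None of 12 tight junction genes was called. Dsc3 (desmocollin-3), at least 2.14-fold higher in a call kept in 4 of 10 other settings, was the only call of 12 desmosome and adherens junction genes. Krt1, at least 2.36-fold higher in a call kept in 6 of 10 other settings, was the only call of 12 keratinisation genes. Aqp3, a water and glycerol channel of basal cells, had 2167 and 1962, against 464, and was 4.67-fold higher in a call that was the same in all settings. It was the only call of 8 basal cell markers and of 14 ion and water transport genes. None of 7 tuft cell genes was called. Of 11 S100 genes, S100a9 and S100a10 were lower.

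Of 22 genes of olfactory neurons, 3 were higher and 1 was lower, and 14 differed upward at any size. Rtp2, which brings odorant receptors to the cell surface, had 244 on ECRS_WT and 1290.0 on ECRS_KO, against 25.4 on Control_WT (at least 6.66-fold). Stoml3, a stomatin of olfactory cilia, had 4276 and 15407, against 1649 (2.59-fold), and the G protein subunit Gnb1 had 4545 and 6634, against 1495 (3.04-fold). Gng8, a G protein subunit of immature sensory neurons, had 674 and 1035, against 1603 (2.38-fold lower). Omp differed by 0.04, the channel subunit Cnga2 by 0.12 and Adcy3 by 0.78. Stoml3 and Rtp2 were brightest on ECRS_KO, as were most neuronal genes named. Of 11 markers of sustentacular cells and Bowman's glands, Ugt2a1 and Cyp2g1 were higher. Ugt2a1, an olfactory glucuronosyltransferase, had 1068 and 1234, against 209.7 (5.09-fold), and Cyp2g1, an olfactory cytochrome P450, had 10727 and 18179, against 3105 (3.45-fold). Both kept their call in all settings, while Cyp1a2, Gpx6, Ces1d, Fmo6, Cbr2, Cyp2a4 and the others were within 2-fold.

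Enzymes of odorant and xenobiotic metabolism were counted next. Cyp2g1 was the only call of 20 cytochrome P450 genes. Of 37 conjugation and aldehyde clearance enzymes, Ugt2a1, Adh1 and Gstm7 were higher and Mgst2 and Aldh1a7 lower. Adh1, the class I alcohol dehydrogenase, had 16914 on ECRS_WT and 17783 on ECRS_KO, against 5171 on Control_WT, and was 3.27-fold higher with the call the same in all settings. Gstm7 is one of a family of closely alike glutathione transferases, and its probe may share signal with them. None of 12 antioxidant genes under NRF2 was called; Fth1, the ferritin heavy chain, had 28775 and 24108, against 18101.

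In the stroma, Mmp3 was higher and Mmp23 was 2.03-fold lower of 19 matrix proteases and inhibitors. Mmp23 kept its call in 6 of 10 other settings. Mmp13 had 3170.2 on ECRS_WT and 3519 on ECRS_KO, against 2993 on Control_WT, Mmp9 had 1402 and 2013, against 2791 (log2 difference -0.99), and Timp1, an inhibitor of these proteases, had 861 and 865, against 1331. Col10a1 was the only call of 18 collagen chains, with 1112 and 4348, against 299.6 (3.71-fold higher), in all settings; it encodes a collagen of hypertrophic cartilage. Of 13 genes of bone and cartilage, 5 differed upward and 8 downward, and the list median lay 0.37 below that of all genes. Sp7, an osteoblast transcription factor, and Phex were 2.03-fold and 2.13-fold lower; Sp7 kept its call in 5 of 10 other settings and its second probe differed by 0.29 on the log2 scale, and no gene of the list was lower with limma's own background estimate. None of 16 endothelial or 12 fibroblast and pericyte markers was called. The skeletal muscle genes Tcap and Pvalb were lower of 10 and the Schwann cell cadherin Cdh19 was higher of 5, by 2.82-fold. Tcap, Pvalb and Cdh19 were not called with limma's own background estimate. Igfbp2 and Igfbp3 were higher of 10 genes of the insulin-like growth factor system, and Fgfr3 alone of 12 fibroblast growth factor and receptor genes.

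Genes of the endolysosome and of protein turnover held several of the largest single differences. Of 17 vacuolar proton pump subunits, which acidify lysosomes and secretory granules, Atp6ap2 and Atp6v1a were higher, Atp6v1c2 was 3.55-fold lower and the other 14 were within 2-fold, among them Atp6v1b2 at 5125 on ECRS_WT and 3893 on ECRS_KO, against 2864 on Control_WT. Of 24 lysosomal hydrolases and membrane proteins, Gusb, Ppt1 and Smpd1 were higher and none lower. Ppt1, which removes palmitate from proteins, had 1177 and 899.9, against 444 (2.65-fold). Gusb, beta-glucuronidase, was 2.73-fold higher by the probe reported, the only call of 8 reference genes, and differed by 0.02 on the log2 scale by its second probe (212 on ECRS_WT and 150.0 on ECRS_KO, against 209 on Control_WT). In the list of F-box and RNF ubiquitin ligases, 9 of 41 were higher and 1 was lower: Rnf13, Rnf4, Rnf114, Rnf126, Fbxo11, Rnf167, Fbxo7, Rnf20 and Fbxo32 were higher and Fbxw5 lower, with 3 higher calls under limma's own background estimate. The median of that list was 0.17 above that of all genes. The list was drawn up with earlier results of these data known, and over-representation was not tested.

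Herpud1 had 4741 on ECRS_WT and 5108 on ECRS_KO, against 1780.3 on Control_WT, and was 2.66-fold higher in all settings. It was the only call of 22 genes of the unfolded protein response and of endoplasmic reticulum degradation, whose median lay 0.02 above that of all genes, a sign that turned in 4 of 10 other settings. Hspa1a, an inducible heat shock protein, was the only call of 18 heat shock and DnaJ genes, at least 2.5-fold higher. Its copy Hspa1b is nearly identical. Hspa1a kept its call in 6 of 10 other settings, with a log2 difference of 0.09 under limma's own background estimate. Psmc1 was 2.82-fold lower, alone among 24 proteasome subunits, and had 105 on ECRS_WT and 27.4 on ECRS_KO, against 298 on Control_WT.

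Metabolic and housekeeping lists were mostly within 2-fold. Of 51 respiratory chain subunits Ndufb10 alone was called, 2.01-fold lower, and none of 32 ribosomal protein genes, 14 glycolysis genes, 14 cell cycle genes or 12 cholesterol synthesis genes was called; Gapdh had 15556 on ECRS_WT and 17498 on ECRS_KO, against 15451 on Control_WT. The cholesterol synthesis list lay 0.31 above the median of all genes in the values reported and above it in the other settings. Of 20 proteins that sever, cap or bundle actin, 4 were higher and none lower, namely Gsn, Pfn1, Lcp1 and Coro1b. Pfn1 (profilin-1, which feeds actin monomers to growing filaments) had 4279 and 3383, against 1208 (3.54-fold), and Lcp1, the plastin of leukocytes, had 546 and 391.8, against 173 (3.16-fold). Snurf and Gnas were higher of 10 imprinted genes, with Gnas at least 3.08-fold.

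**Figure D5:**
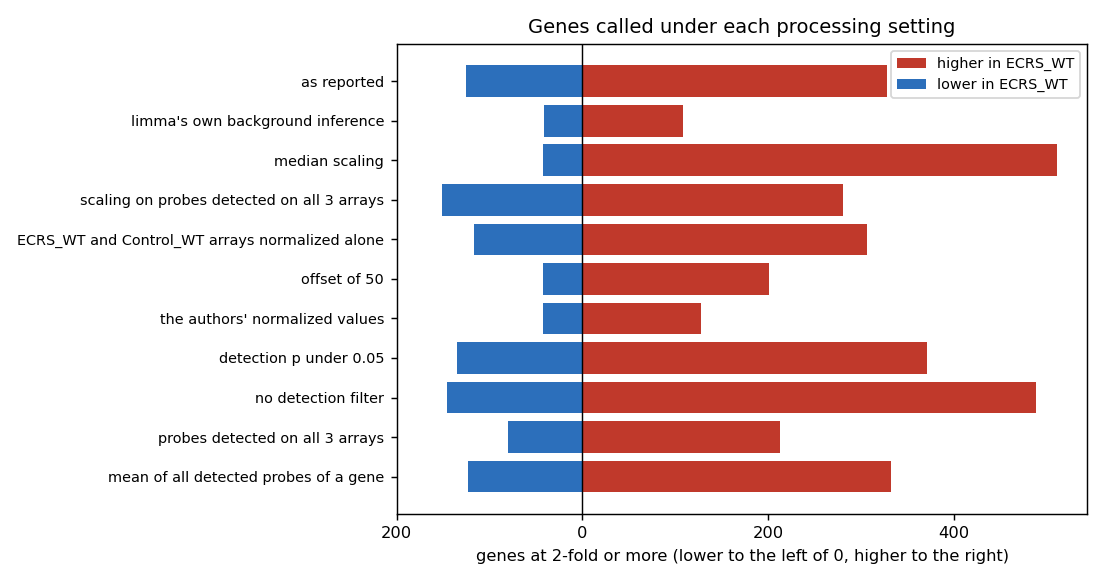
Number of genes at 2-fold or more lower (blue, left of 0) and higher (red, right of 0) in ECRS_WT than in Control_WT, as reported (top) and under 10 other settings. As reported there were 328 higher and 125 lower genes; higher calls outnumber lower ones under every setting shown.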

How the data were processed

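Per the file headers, the deposited table gives an intensity and, next to it, the detection p-value of 35226 probes on 3 arrays. BeadStudio is named in the submitters' processing notes, with no version. The series table holds intensity normalized by the authors; the method is not given in the sources used here. For Control_WT, the median over probes of that intensity minus the deposited signal was 70.6. The authors' values served as an alternative. Names came from the platform annotation: 1 symbol for 20571 probes, several for 10 and none for 14645. By Entrez identifier, 20525 probes matched the RefSeq gene table.

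The values reported were computed with limma 3.58.1 in R 4.3.3, with normexp background correction at an offset of 16, quantile normalization and the log2 scale; normalised signal is that level on the linear scale. The SD of negative controls, estimated from the median signal in 100 bins of detection p-value, was 13.7 on ECRS_WT, 16.9 on ECRS_KO and 9.23 on Control_WT, and limma's own estimate was 356, 360.6 and 259.6. Of several probes of a gene the one with the highest mean level was used. A gene undetected on the dimmer array was set to its own level there or to the lowest detected one (5.06 on ECRS_WT and 5.19 on Control_WT, log2), whichever was higher. Python 3.11.15, pandas 2.3.3, numpy 2.4.6 and matplotlib 3.10.9 were used, and the procedure was tested on simulated data.

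The members and the 60 gene lists were chosen with earlier results of these data known. A rule singled out 151 genes: Scgb1a1, those with every probe at 2-fold or more, the 25 most different each way where both arrays detected the gene, the 10 most different each way where 1 did, and of each list the 3 largest members called, or otherwise the 2 brightest. Other genes named were chosen after their values were seen. In all, 10 alternatives were run. The number of arrays limits the precision, and no group has a second array.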

Additional observations from a re-analysis of the deposited data

Results flagged for a closer look

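The following values stand outside the comparison of named, detected genes. Of 3461 probes without a gene symbol that were detected on either array, 271 (7.83%) were at 2-fold or more higher in ECRS_WT and 42 (1.21%) lower, against 3.74% and 1.43% of named genes. Among 138 genes that had a signal over 1000 and yet were detected on neither array, 9 had a signal 2-fold or more higher in ECRS_WT and 1, Ifi27l2a, a lower one; not being detected, they have no fold that counts as measured. The normalised signal of Scgb1a1 on the array labelled ECRS_KO, the pool of mice labelled as lacking its product CC10, was 459.33, beside 522 on ECRS_WT and 30.4 on Control_WT. These looks were chosen after values had been seen.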

How the results depend on the processing

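As reported, 328 genes were higher and 125 lower in ECRS_WT than in Control_WT. The counts were 108 and 41 with limma's own background inference (70 and 15 genes shared with those reported), 511 and 43 with median scaling, 201 and 42 with an offset of 50, 128 and 42 with the authors' normalized values, and 213 and 80 with genes detected on all 3 arrays; dropping the detection filter gave 489 and 146. The higher calls made up 72.4% of all calls as reported, 92.2% with median scaling, 65.0% with scaling on the probes detected on all 3 arrays and 82.7% with an offset of 50. Of 118 singled-out genes called, 35 kept 2-fold with limma's own inference, 77 with the authors' values, 90 with an offset of 50, 83 with genes detected on all 3 arrays and 107 to 118 in the other 6 settings. None of these 118 changed direction in any setting. The causes of these changes were not tested, apart from the filter on all 3 arrays, which leaves fewer genes. No paired analysis was possible because each group has 1 array. The folds of dim genes such as Mmp3 and Scgb1a1 depended on the background estimate. The log2 difference of Mmp3 was 0.58 with limma's own inference and that of Scgb1a1 0.86, against 3.05 and 3.84 as reported.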

Other observations

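Some bright genes were left out of the comparison because their detection p-values were 0.01 or more on both arrays, although their signal was over 1000 on at least 1 of them. Lyz2, the lysozyme of macrophages and neutrophils, had a normalised signal of 4935 on ECRS_WT and 1952 on ECRS_KO, against 1442 on Control_WT. Btg1, which restrains cell division, had 1489 and 1456, against 157. Nqo1, a quinone reductase under NRF2, had 1552 and 4331, against 376, and Car6, the secreted carbonic anhydrase of glands, had 2794 and 5212, against 634. Tspan3, Psma1, Selenof, Chmp2a and Pld3 also had more signal on ECRS_WT than on Control_WT. No fold is given, because none of these probes was detected on either array. Why the detection p-values of these probes do not follow their signals was not tested.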
